A study of Rattus norvegicus with 90 samples.

Results

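The genes described here are 9 nuclear receptors of lipids and xenobiotics and a coactivator that works with them: Ppara, Ppard, Pparg, Ppargc1a, Nr1i2, Nr1i3, Nr1h3, Nr1h4, Rxra and Hnf4a. They were found by gene symbol, from a list drawn up with earlier results of these data known, and all 10 are among the 20833 genes of the deposited counts. Liver RNA came from 45 time-mated Sprague-Dawley dams (Crl:CD(SD)) and from their fetuses, after the dams received NBP2 by mouth each day (Nafion byproduct 2, a sulfonic acid with a polyfluorinated ether chain). TempO-Seq was used, an assay that ligates paired probes on each transcript and counts the ligated product, so each value depends on where the probes bind and levels are not compared between genes. At gestation day 18 (GD18), after doses from GD14, there were 6 control dams. Each of 6 dosed groups held 4 dams, the low ones at 0.1 or 0.3, the middle ones at 1 or 3 and the high ones at 10 or 30 mg/kg/d. At the later age, after doses from GD17, there were 3 control dams and 3 dams in each of 4 dosed groups, which left out the low doses. Titles call that age GD21 and the age entries GD20, and it is called GD21 here. Each dam gave 1 maternal and 1 fetal library, 90 in 24 groups. All dams were of 1 strain and about 90 days old, fetuses were exposed through the dam, and livers were taken 2 to 4 h after the last dose. Whether a fetal library held 1 fetus or a pool, and of which sex, is not stated. The GD18 animals came from study blocks 140 and 143 and the GD21 animals from block 144, so age and block cannot be told apart.

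Nuclear receptors are transcription factors that small lipophilic ligands switch on. PPAR-alpha (Ppara), PPAR-delta (Ppard) and PPAR-gamma (Pparg) bind fatty acids, PXR (Nr1i2) and CAR (Nr1i3) drive drug-metabolising enzymes in response to foreign compounds, LXR-alpha (Nr1h3) binds oxysterols and FXR (Nr1h4) binds bile acids. All of these pair with RXR-alpha (Rxra) or its relatives on DNA. HNF4-alpha (Hnf4a) maintains hepatocyte gene expression, and PGC-1-alpha (Ppargc1a) is a coactivator of several of these receptors. In rodent liver, perfluorinated acids are widely known as PPAR-alpha ligands, and many also switch on CAR and PXR targets.

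Promoters are shown for the receptors whose levels carry the comparisons below: Ppara, Nr1i2 and Rxra, which rose in fetal liver between the ages, and Nr1i3, which rose in maternal liver at 30 mg/kg/d at GD21. Promoters of 8 of the 10 genes were found by symbol in the RefSeq set for GRCr8, and Ppard and Nr1h4 were not matched. The 250 bases before each annotated start are printed 5′ to 3′ on the gene's strand, and capitals mark matches on either strand to GGGCGG (the GC box), to the CCAAT box or to the variant receptor core motif AGTTCA.
Ppara, GRCr8 chr7:118712357-118712606, plus strand: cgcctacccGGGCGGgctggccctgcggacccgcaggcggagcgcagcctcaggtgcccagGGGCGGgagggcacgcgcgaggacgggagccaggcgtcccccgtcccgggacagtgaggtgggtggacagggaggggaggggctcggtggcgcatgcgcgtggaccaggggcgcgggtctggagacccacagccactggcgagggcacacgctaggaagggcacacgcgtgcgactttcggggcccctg
Nr1i2, GRCr8 chr11:75965467-75965716, plus strand: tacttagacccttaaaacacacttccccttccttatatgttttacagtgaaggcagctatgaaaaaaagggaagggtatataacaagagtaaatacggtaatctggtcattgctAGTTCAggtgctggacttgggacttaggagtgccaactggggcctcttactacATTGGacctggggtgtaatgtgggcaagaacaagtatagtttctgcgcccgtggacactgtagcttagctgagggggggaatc
Rxra, GRCr8 chr3:31387642-31387891, plus strand: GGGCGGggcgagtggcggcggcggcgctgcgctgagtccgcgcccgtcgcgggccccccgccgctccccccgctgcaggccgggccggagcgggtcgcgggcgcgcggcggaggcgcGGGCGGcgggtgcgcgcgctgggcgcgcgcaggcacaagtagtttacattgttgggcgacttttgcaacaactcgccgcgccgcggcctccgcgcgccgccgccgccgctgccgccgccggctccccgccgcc
Nr1i3, GRCr8 chr13:86165170-86165419, plus strand: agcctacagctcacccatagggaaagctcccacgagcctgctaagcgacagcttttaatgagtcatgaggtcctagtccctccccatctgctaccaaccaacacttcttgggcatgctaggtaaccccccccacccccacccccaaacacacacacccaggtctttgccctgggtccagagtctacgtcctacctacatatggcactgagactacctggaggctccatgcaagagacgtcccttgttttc
The Ppara and Rxra stretches were 76.0% and 82.8% G or C and held 2 GGGCGG matches each, against a median of 51.6% and a GGGCGG match in 30.5% of 33360 distinct rat promoters of that length. Nr1i2 (46.0% G or C) held 1 CCAAT match and 1 AGTTCA match, which occur in 34.0% and 12.2% of promoters. Nr1i3 (55.6% G or C) held no match to any motif searched, a list that also included TATAAA (in 12.9% of promoters), the HNF4 motif, AGGTCA and its DR1 and DR4 repeats. AGGTCA, the receptor core motif, was found before none of the 8 genes and in 14.1% of all promoters. These matches describe letters in a window and no binding was measured.

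Libraries held 3184903 to 7265191 counts. Hepatocyte markers (17 genes, among them Alb, Apoa1 and Serpina1) were present in every group, with summed medians in controls of 31170 CPM (counts scaled to a common library total) in maternal and 7527 in fetal liver at GD18, and of 48520 and 16880 at GD21. Erythroid markers (19 genes, led by Hbb) summed to 120900 CPM in fetal and 3117 CPM in maternal GD18 controls, and to 134900 and 790.3 CPM at GD21. Block 140 carried counts on 1257 olfactory, vomeronasal and taste receptor genes that block 143 almost lacked. Their mean per gene was 2.59 to 3.50 CPM in maternal and 0.878 to 2.91 CPM in fetal controls of block 140. It was at most 0.0481 CPM in controls of block 143. In block 144 it was at most 0.0359 CPM in maternal libraries and reached 0.302 CPM in fetal ones. There the fetal libraries of dam 2129, a control, and dam 2135 carried 379.1 and 298.5 CPM in sum. Levels of Ppard, Ppargc1a and Nr1i3 in block 140 lie near that mean, as do fetal levels of Nr1h3. Nr1i3 was at or below it in 7 of 30 maternal and 15 of 30 fetal GD18 libraries, and Nr1h3 in 4 of 30 fetal ones. Nr1i2, Nr1h4, Rxra, Hnf4a and Ppara were above it in every library. One fetal GD21 library, dam 2135 at 3 mg/kg/d, had few detected genes. In such bulk tissue, fewer cells of a type and less RNA per cell cannot be told apart.

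**Figure D1:**
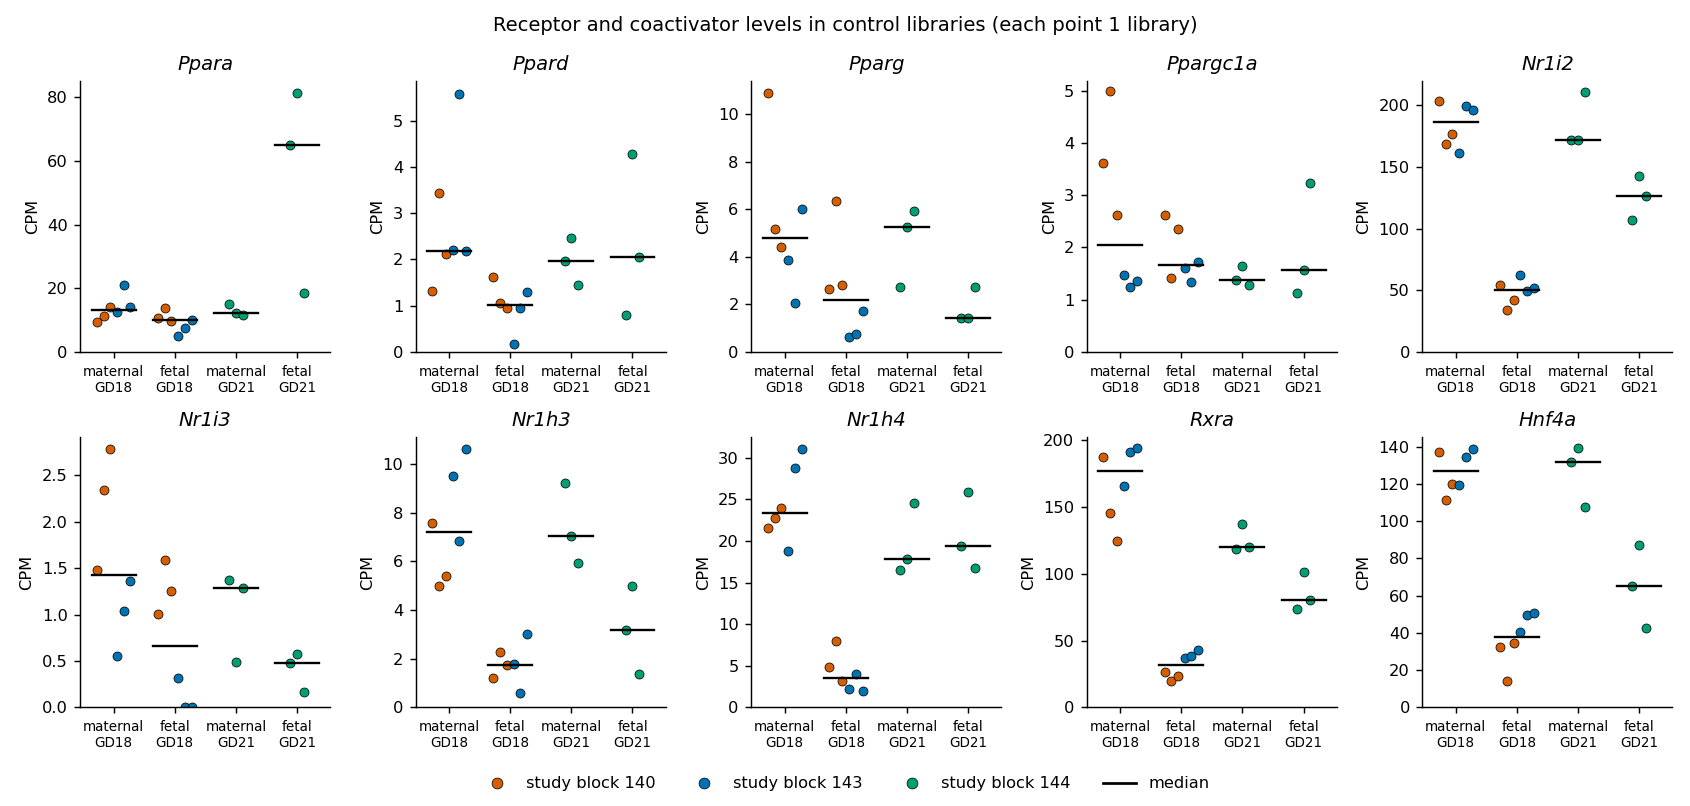
Level in CPM (linear axis from 0) of each gene in control libraries of maternal and fetal liver at GD18 and GD21; each point is 1 library coloured by study block, and lines are medians. Fetal Nr1i2, Nr1h3, Nr1h4, Rxra and Hnf4a lie below all maternal controls at GD18, and fetal Ppara lies above all maternal controls at GD21.

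In controls at GD18, levels scaled to the library were lower in fetal than in maternal liver for 9 of the 10 genes, and none was higher. Nr1h4, Nr1h3, Nr1i2, their partner Rxra, and Hnf4a had fetal to maternal ratios of medians of 0.153 to 0.296, and Nr1i3 had 0.468. Across all 15702 genes tested, 21.9% were called lower and 49.0% were called in either direction (edgeR quasi-likelihood test, Benjamini-Hochberg adjusted p under 0.05). The median log2 fold change was −1.76 over the 10 genes and −0.19 over all genes. In 5 of the 10 genes every fetal library was below every maternal one, which held for 13.3% of all genes.

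Among the xenobiotic sensors, Nr1i2 (rn6 chr11:65022100-65058546, plus strand) ranged from 34.1 to 62.1 CPM with a median of 50.5 in 6 fetal controls, and from 161 to 204 CPM with a median of 186 in 6 maternal controls. The groups were far apart, with a log2 fold change of −2.03 ± 0.16 (SE, edgeR adjusted p = 1.9e-16). Nr1i3 (chr13:89586283-89591278, plus strand) was near the limit of detection in fetal liver, at 0 to 1.59 CPM with a median of 0.666, and at 0.549 to 2.78 CPM with a median of 1.42 in maternal liver. The groups overlapped, and the fitted difference of −1.28 ± 0.55 passed the threshold narrowly (edgeR adjusted p = 0.047). Nr1i3 was −0.73 in block 140 alone (edgeR adjusted p = 0.44) and −3.08 in block 143 alone (adjusted p = 0.019), where 2 of 3 fetal controls had no count. The call was lost without any 1 of 7 libraries (fetal 2114, 2115 or 2116, maternal 2070, 2071, 2115 or 2116; −1.05 to −1.32, adjusted p of 0.051 to 0.11), with no low-count filter, with no block term and with total-count scaling.

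The bile acid receptor Nr1h4 (chr7:30003429-30162057, minus strand) ranged from 1.94 to 7.94 CPM with a median of 3.58 in fetal controls and from 18.8 to 31.1 CPM with a median of 23.4 in maternal controls. It had the largest difference of the 10 genes, −2.76 ± 0.28 (edgeR adjusted p = 7.1e-13). Nr1h3 (chr3:80004130-80012751, minus strand), whose product raises Srebf1 and cholesterol exporters, ranged from 0.573 to 3.02 CPM against 4.99 to 10.6 CPM, a difference of −2.19 ± 0.26 (edgeR adjusted p = 1.7e-10). The common partner Rxra (chr3:6211789-6295909, plus strand) ranged from 19.6 to 43.3 CPM in fetal and from 124 to 194 CPM in maternal controls, a difference of −2.58 ± 0.19 (edgeR adjusted p = 1.6e-17). Hnf4a (chr3:159902441-159965004, plus strand) ranged from 13.9 to 50.9 CPM against 111 to 138 CPM, a difference of −1.93 ± 0.22 (edgeR adjusted p = 7.4e-11). For none of these genes did a fetal library reach the lowest maternal one, and each stayed called in each block alone. Fetal Nr1h3 in block 140 lay near the mean of olfactory, vomeronasal and taste receptor genes, with 1 of 3 controls at or below it.

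The lipid-burning regulator Ppara (chr7:126619196-126681753, plus strand) differed less between the livers. It ranged from 4.99 to 13.9 CPM with a median of 9.93 in fetal and from 9.39 to 20.9 CPM with a median of 13.3 in maternal controls. The groups overlapped, and the difference was −0.64 ± 0.24 (edgeR adjusted p = 0.021). That value came from block 143, where it was −1.44 (edgeR adjusted p = 4.2e-05), and was near 0 in block 140 (adjusted p = 0.99). It was also lost without fetal library 2114 (−0.48, adjusted p = 0.094) or 2115 (−0.55, adjusted p = 0.063), without maternal library 2115 (−0.51, adjusted p = 0.082), with no low-count filter and with total-count scaling. Ppard (chr20:7818289-7885334, plus strand), the broadly expressed member of the family, was lower by −1.60 ± 0.36 (edgeR adjusted p = 0.00012), and Pparg (chr4:147274107-147399381, plus strand), best known from fat cells, by −1.32 ± 0.42 (adjusted p = 0.0065). Their fetal medians were 1.01 and 2.17 CPM against 2.19 and 4.78 CPM, with overlap, and block 140 alone gave −0.85 and −0.82 (edgeR adjusted p = 0.27 and 0.25). The coactivator Ppargc1a (chr14:63095720-63187010, plus strand) did not pass, at 1.34 to 2.62 CPM against 1.24 to 4.99 CPM (−0.44 ± 0.42, edgeR adjusted p = 0.41).

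These differences stood beside different cell contents. The fetal to maternal ratio of medians at GD18 was 0.271 for Nr1i2, 0.296 for Hnf4a and 0.243 for Nr1h3. It was 0.179 for Rxra, 0.153 for Nr1h4 and 0.746 for Ppara. For markers it was 0.241 in the hepatocyte and 38.8 in the erythroid list. It was 76.2 for markers of hepatoblasts, the fetal precursors of hepatocytes (9 genes). The part of cell content or hepatocyte maturation in the receptor differences was not tested. Leaving erythroid and haemoglobin genes out before scaling left the same 9 genes called. That step changes the scaling and not the mix of cells, so it does not test cell content.

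**Figure D2:**
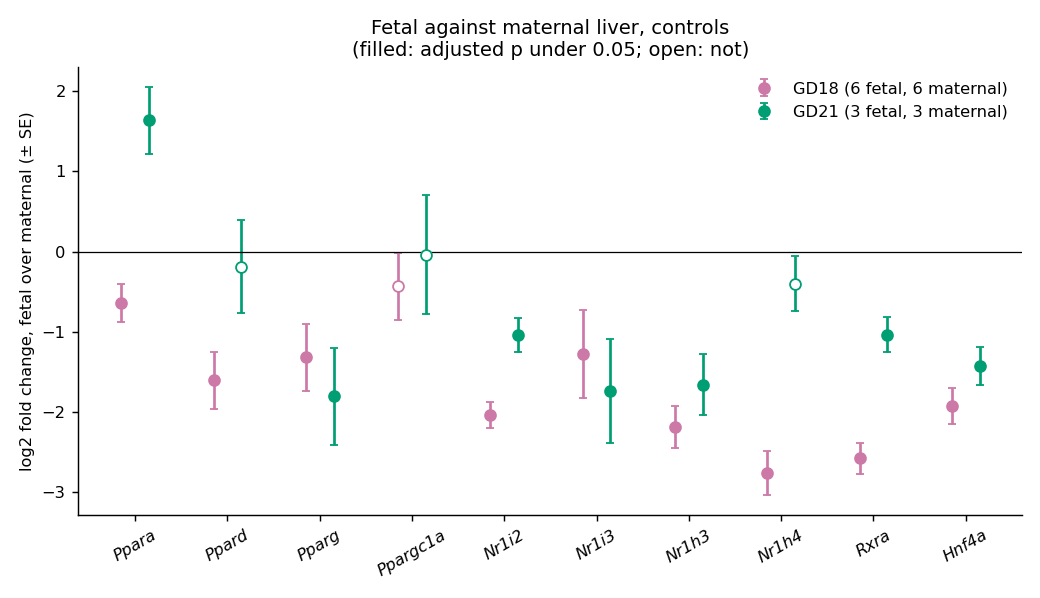
Log2 fold change of fetal over maternal control liver with its SE (edgeR) for each gene at GD18 and GD21; filled points passed an adjusted p under 0.05. Ppara lies below 0 at GD18 (−0.64) and above 0 at GD21 (1.64), and Nr1h4 moves from −2.76 to −0.40.

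At GD21 the picture differed by gene. Ppara was higher in fetal than in maternal liver, 6 genes were lower (Pparg, Nr1i2, Nr1i3, Nr1h3, Rxra and Hnf4a), and Ppard, Ppargc1a and Nr1h4 did not pass. Of 10794 genes tested, 45.8% were called, 25.2% higher and 20.7% lower. The median log2 fold change was −1.04 over the 10 genes and 0.13 over all genes. With libraries scaled by their total count instead, the median of all genes was 0.61, and 5 of these genes stayed called: Ppara, Nr1i2, Nr1h3, Rxra and Hnf4a.

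Ppara stood at 65.1, 81.3 and 18.4 CPM in the 3 fetal controls (dams 2129, 2130 and 2131) and at 14.9, 12.1 and 11.6 CPM in the maternal controls. Every fetal library was above every maternal one, although the fetal library of dam 2131 was close to them, and the difference was 1.64 ± 0.42 (edgeR adjusted p = 0.0021). In all 15 fetal GD21 libraries, dosed ones included, Ppara was between 18.4 and 93.6 CPM, against 9.72 to 30.9 CPM in the 15 maternal ones. Nr1h4 stood at 19.4, 25.9 and 16.7 CPM in fetal and 16.5, 17.9 and 24.6 CPM in maternal controls, with overlap (−0.40 ± 0.34, edgeR adjusted p = 0.36).

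Nr1i2 stood at 107, 143 and 126 CPM in fetal and 172, 172 and 211 CPM in maternal controls, a difference of −1.04 ± 0.21 (edgeR adjusted p = 0.00023). Rxra stood at 73.5, 101 and 80.2 CPM against 118, 137 and 120 CPM, with the same fitted difference to 2 decimals (−1.04 ± 0.22, adjusted p = 0.00037). Hnf4a stood at 65.4, 87.0 and 42.6 CPM against 132, 139 and 108 CPM (−1.43 ± 0.23, edgeR adjusted p = 1.5e-05). The 3 fetal libraries of each gene were below all maternal ones. Such separation was seen downward in 16.4% and upward in 44.9% of all genes at GD21, for 3 libraries against 3.

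Nr1h3 stood at 3.20, 5.00 and 1.36 CPM in fetal and 9.22, 7.05 and 5.94 CPM in maternal controls (−1.66 ± 0.38, edgeR adjusted p = 0.00092). Pparg stood at 1.44, 1.43 and 2.73 CPM against 2.75, 5.25 and 5.94 CPM (−1.80 ± 0.60, adjusted p = 0.016). Nr1i3 stood at 0.480, 0.572 and 0.171 CPM against 1.37, 0.492 and 1.28 CPM (−1.74 ± 0.65, edgeR adjusted p = 0.032). These were 1 to 4 counts per fetal library for Nr1i3, and the groups overlapped only for that gene. With dam as a block, which pairs each fetal library with its mother's, the Nr1i3 call was lost (edgeR adjusted p = 0.086) and the other 6 were kept. It was also lost without either library of dam 2129 or 2131 (−1.39 to −1.86, adjusted p of 0.059 to 0.12). The Pparg call was lost without fetal library 2129 or 2130 or maternal library 2131 (−1.63 to −1.67, adjusted p of 0.056 to 0.062). Ppard (0.799, 4.29 and 2.05 CPM against 1.96, 2.46 and 1.44 CPM) and Ppargc1a (1.12, 1.57 and 3.24 CPM against 1.37, 1.64 and 1.28 CPM) overlapped between the livers.

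Between GD18 and GD21, 6 of the 9 genes tested rose in fetal control liver: Ppara, Nr1h4, Nr1i2, Rxra, Ppard and Hnf4a. None fell, and Nr1i3 had too few counts to be tested. Of 14697 genes, 17.1% were called, 10.7% higher. The median was 1.44 over the 9 genes and −0.26 over all genes. In maternal liver none of the 10 was called (0 at an adjusted and 0 at an unadjusted p under 0.05, and 0 with DESeq2), where 0.212% of 14621 genes passed the adjusted and 21.6% the unadjusted threshold. The maternal median of all genes moved from −0.21 to −0.57 when libraries were scaled by their total, so directions of small maternal changes are not given.

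Ppara rose by 2.74 ± 0.31 on the log2 scale (edgeR adjusted p = 6.9e-09), from a fetal median of 9.93 to 65.1 CPM. Nr1h4 rose by 2.56 ± 0.37 (adjusted p = 1.4e-06), Rxra by 1.61 ± 0.28 (adjusted p = 2.5e-05) and Nr1i2 by 1.53 ± 0.20 (adjusted p = 1.7e-07). In these 4 genes all 3 GD21 libraries were above all 6 GD18 libraries, as they were in 7.76% of all genes. Hnf4a rose by 0.99 ± 0.31 (edgeR adjusted p = 0.021) and Ppard by 1.44 ± 0.52 (adjusted p = 0.049), with overlap. Both calls were lost without the fetal library of dam 2130 (0.68 and 0.67, edgeR adjusted p = 0.31 and 0.62), which held the highest GD21 level of each. The Hnf4a call was also lost without fetal library 2129 or 2069 (adjusted p = 0.067 and 0.054), and the Ppard call without 2131, 2070, 2071, 2114 or 2115 (adjusted p of 0.062 to 0.10). Total-count scaling ended both calls (adjusted p = 0.0501 and 0.11), control libraries alone that of Hnf4a (adjusted p = 0.082), and RLE factors or no low-count filter that of Ppard (adjusted p = 0.067 and 0.082). Nr1h3 (1.05 ± 0.42, adjusted p = 0.085), Pparg (−0.21 ± 0.70) and Ppargc1a (0.27 ± 0.63) did not pass.

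The difference between the fetal and the maternal change was tested in 1 fit over both ages, a comparison added after the data were seen. Ppara (2.47 ± 0.46, edgeR adjusted p = 8.3e-05), Nr1h4 (2.48 ± 0.46, adjusted p = 6.2e-05), Rxra (1.66 ± 0.36, adjusted p = 0.00097) and Nr1i2 (1.13 ± 0.29, adjusted p = 0.0067) passed, and 6 genes did not. Of 16496 genes, 5.92% passed, 4.53% with the larger change in fetal liver, and the median was 0.92 over the 10 genes and 0.49 over all genes. These 4 stayed called under every alternative fit and without any single library. Over the same interval the hepatocyte markers in fetal controls went from a summed median of 7527 to 16880 CPM. The hepatoblast markers there went from 16330 to 28200 CPM. The part of those changes in the receptor changes was not tested. Age and study block cannot be told apart here.

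Target genes in the same control livers were listed from textbook knowledge, and the lists were drawn up with earlier results of these data known. At GD18 scaled levels in fetal liver were lower for 28 of 36 tested PPAR-alpha targets and higher for 2 (median −2.45, all genes −0.19). They were lower for 18 of 22 CAR and PXR targets (median −4.34) and all 7 FXR targets (−4.49). The same held for 20 of 21 HNF4-alpha targets (−2.55) and 8 of 14 LXR targets (−1.13). Of all genes, 21.9% were called lower and 27.1% higher. Ehhadh, a peroxisomal enzyme of fatty acid oxidation, was lower by −4.41 ± 0.27 (edgeR adjusted p = 1.2e-20), and Cyp4a1, a fatty acid hydroxylase, by −8.47 ± 0.47 (adjusted p = 7.3e-23), where Ppara was lower by 0.64. Abcb11, the bile salt exporter under FXR, was lower by −6.47 ± 0.34 (edgeR adjusted p = 7.2e-24), and Nr0b2, the FXR-induced repressor SHP, by −4.01 ± 0.43 (adjusted p = 6.1e-12). Fetal controls held Cyp4a1 at 0.161 to 1.41 CPM and Nr0b2 at 0 to 1.235 CPM (0 to 7 counts). At such levels the sizes of these 2 differences are uncertain. Cyp4a1 in fetal controls of block 140 lay below their mean per olfactory, vomeronasal and taste receptor gene.

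At GD21 the order of Ppara and its targets was not the same. Fetal Ppara was above maternal Ppara, but 22 of 36 PPAR-alpha targets were still lower in the fetus and 3 were higher (median −1.37, all genes 0.13), where 20.7% of all genes were lower and 25.2% higher. Ehhadh stood at 13.4, 16.0 and 8.36 CPM in fetal and 33.0, 41.3 and 67.9 CPM in maternal controls (−2.37 ± 0.46, edgeR adjusted p = 0.00012), and Cyp4a1 at 2.73 to 7.72 CPM against 90.1 to 142 CPM (−4.89 ± 0.66, adjusted p = 8.0e-07). Nr1h4 did not differ detectably between the livers, while all 6 FXR targets tested were lower in the fetus (median −2.96). Between the ages 25 of 33 PPAR-alpha targets, 5 of 6 FXR targets and 16 of 21 HNF4-alpha targets rose in fetal liver and 1 HNF4-alpha target fell. Of 20 CAR and PXR targets, 7 rose. Of all genes, 10.7% rose and 6.4% fell.

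After NBP2, 1 of these genes passed the threshold against control. Nr1i3, the CAR gene, rose in maternal liver at 30 mg/kg/d at GD21 and was the only one of the 10 called against control at any dose, liver or age. At GD21, 1 of the 9 genes tested was called, against 0.336% of 9238 genes (0.303% higher). At GD18, 0 of 10 were called, against 0.457% of 13783 genes. There Nr1i3 alone had an unadjusted p under 0.05 (10.3% of all genes), RLE factors or total-count scaling called it, and DESeq2 called none of the 10 and gave Nr1i3 no adjusted p.

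Nr1i3 at GD21 stood at 1.37, 0.492 and 1.28 CPM in maternal controls (3 to 8 counts) and at 3.70, 7.27 and 8.16 CPM in dams 2141, 2142 and 2143 at 30 mg/kg/d. Every dosed library was above every control, and the log2 fold change was 2.57 ± 0.45 (edgeR adjusted p = 0.021). Such a separation was seen in 9.41% of all genes there, for 3 libraries against 3. The fold change kept its direction in all 11 alternatives, between 2.24 and 2.86, and the call was lost in 6 of them: with only control and 30 mg/kg/d libraries in the fit (adjusted p = 0.061) and without 5 of the 6 libraries (2129, 2130, 2131, 2142 or 2143, adjusted p of 0.065 to 0.14). A slope over the order of doses was 0.57 ± 0.12 per dose step (edgeR adjusted p = 0.037; 0.444% of genes called) and 0.18 without the 30 mg/kg/d group (adjusted p = 1.00).

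At GD18 Nr1i3 ranged from 0.549 to 2.78 CPM with a median of 1.42 in 6 maternal controls and stood at 2.93, 8.69, 6.14 and 4.67 CPM in dams 2082, 2083, 2127 and 2128 at 30 mg/kg/d. All 4 dosed libraries were above all controls, as in 0.769% of genes there, and the log2 fold change was 1.78 ± 0.44 (edgeR adjusted p = 0.061). Controls of block 140 (1.48 to 2.78 CPM) were higher than those of block 143 (0.549 to 1.36 CPM). In block 140, 2 of 3 controls were at or below their library's mean per olfactory, vomeronasal and taste receptor gene. Dam 2082 was below its own such mean too (2.93 against 4.46 CPM). The fold change was 1.22 within block 140 and 2.52 within block 143, neither called with 2 dosed libraries each (edgeR adjusted p = 0.40 and 0.24). The slope over doses at GD18 was 0.23 ± 0.07 per step (edgeR adjusted p = 0.24; 0.218% of genes called). At 10 mg/kg/d the levels were 3.50, 2.28, 3.71 and 0.370 CPM and overlapped the controls. At 1 mg/kg/d at GD21 all 3 libraries (2.34, 2.05 and 2.05 CPM) were above the controls, as 9.34% of genes were, but at 3 mg/kg/d they were not (1.40, 1.02 and 1.69 CPM).

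**Figure D3:**
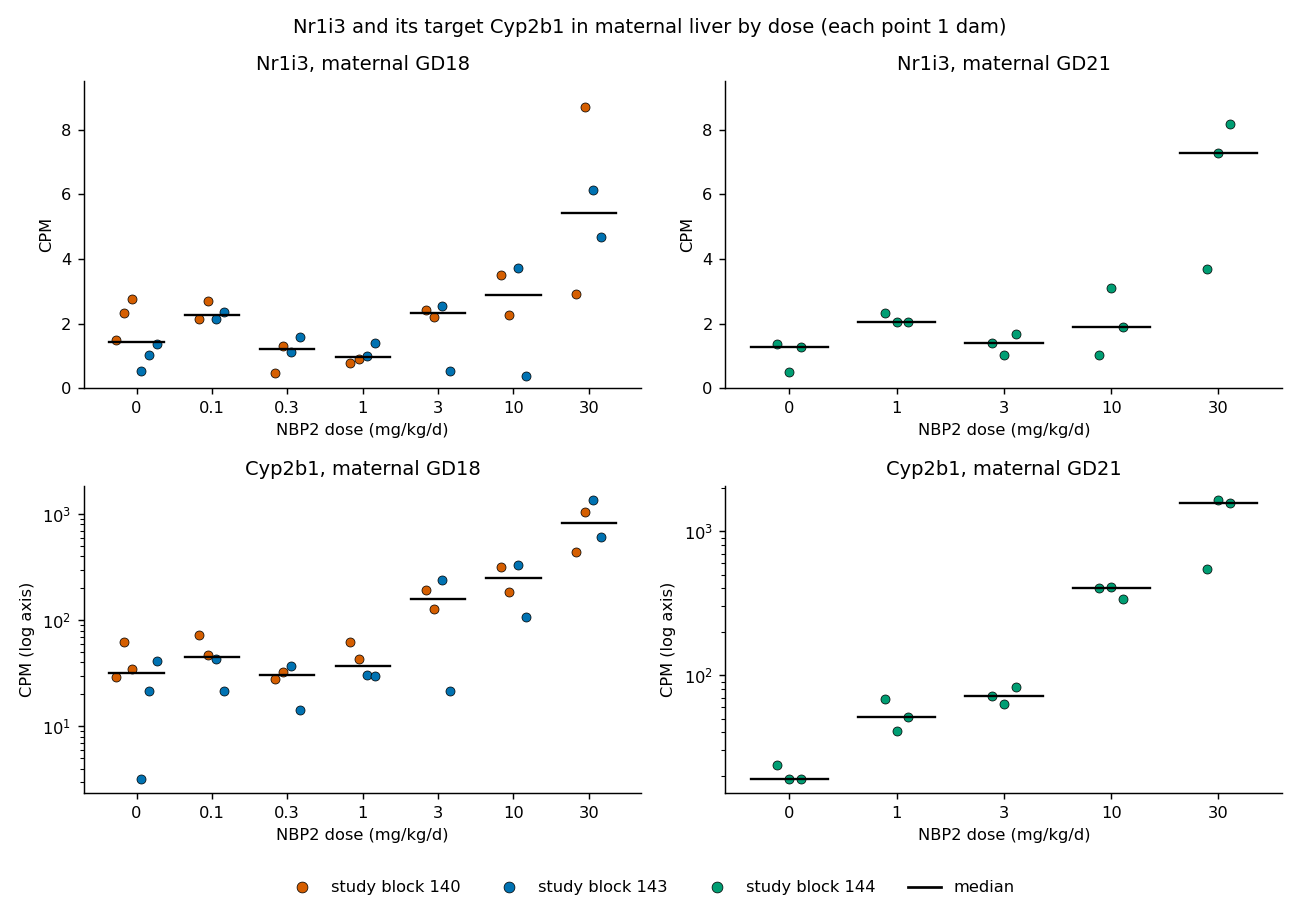
Level in CPM of Nr1i3 (linear axis) and of its target Cyp2b1 (log axis) in maternal liver by NBP2 dose at GD18 and GD21; each point is 1 dam coloured by study block, and lines are medians. Nr1i3 is above all controls only at 30 mg/kg/d at GD18, and at 1 and 30 mg/kg/d at GD21, while Cyp2b1 is above all controls at 10 and 30 mg/kg/d at GD18 and at every dose at GD21.

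Cyp2b1, the classical CAR-induced cytochrome P450, was read beside it in the same dams. In the 30 mg/kg/d dams 2082, 2083, 2127 and 2128 at GD18 it stood at 444, 1055, 1360 and 612 CPM, against 3.17 to 63.0 CPM in controls (4.86 ± 0.54, edgeR adjusted p = 1.4e-06). In dams 2141, 2142 and 2143 at GD21 it stood at 544, 1648 and 1582 CPM, against 18.9 to 23.7 CPM (5.91 ± 0.39, edgeR adjusted p = 6.7e-07). In both ages the dam with the lowest Nr1i3 at 30 mg/kg/d (2082 and 2141) also had the lowest Cyp2b1. The same holds at 10 mg/kg/d at GD18, where dam 2126 had 0.370 CPM of Nr1i3 and 107 CPM of Cyp2b1, against 186 to 328 CPM in the other 3. It does not hold at 10 mg/kg/d at GD21, where dam 2138 had the lowest Nr1i3 (1.02 CPM) with Cyp2b1 at 402 CPM, and dam 2140 had the lowest Cyp2b1 (339 CPM) with Nr1i3 at 1.90 CPM. At 30 mg/kg/d the highest Nr1i3 was in dams 2083 and 2143, but the highest Cyp2b1 in dams 2127 and 2142. At 10 mg/kg/d the highest of each was in the same dam (2125 at GD18, 2139 at GD21). Nr1i3 in dam 2082 was below its library's mean per olfactory, vomeronasal and taste receptor gene. Reads of Cyp2b1 and its near copy Cyp2b2 may be shared.

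In fetal liver Nr1i3 was low, with a median of 0.328 CPM over the 30 GD18 and 0.480 CPM over the 15 GD21 libraries. The highest value was 2.82 CPM (18 counts) in dam 2079 at 3 mg/kg/d at GD18, above every maternal GD18 control, and fetal GD18 controls reached 1.59 CPM. That library of dam 2079, of block 140, carried 4918 CPM in sum on the 1257 olfactory, vomeronasal and taste receptor genes. Its Nr1i3 value was below their mean per gene, and 2 of 3 fetal controls of block 140 were at or below theirs. Nr1i3 had no count in 7 of 30 libraries at GD18 and 5 of 15 at GD21, where no count allows up to 0.413 to 0.942 CPM (3 counts of the library's total). At 30 mg/kg/d it stood at 0.172, 0, 0.162 and 0 CPM at GD18 and at 0.771, 0.636 and 0.529 CPM at GD21, and it was below the filter for the dose tests. The joint fit put the fetal response at GD18 below the maternal one by −4.43 ± 1.02, which did not pass (edgeR adjusted p = 0.064; 0.0573% of 15702 genes passed) and depends on the prior count where fetal counts are 0. At GD21 it was −1.97 ± 0.91 (adjusted p = 1.00; 0.0371% of 10794 genes passed). None of the 10 genes passed in either test of dam against fetus.

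The other receptors were not called at 30 mg/kg/d. In maternal liver Nr1i2 changed by 0.08 ± 0.12 at GD18 and 0.26 ± 0.13 at GD21 (edgeR adjusted p = 0.86 and 0.69), and Ppara by 0.34 ± 0.26 and 0.25 ± 0.33 (adjusted p = 0.70 and 0.96). Rxra at GD21 was above all controls in the 3 dosed dams, yet its change was only 0.28 ± 0.15 (edgeR adjusted p = 0.77). Hnf4a changed by −0.35 ± 0.17 at GD18 and −0.13 ± 0.17 at GD21 (edgeR adjusted p = 0.49 and 0.96). For the 9 genes other than Nr1i3 at GD18 the fold changes lay between −0.45 and 0.35, with a median over the 10 of 0.05, and 0.05 over all genes.

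In fetal liver 0 of 8 genes were called at GD18, where 0.103% of 12659 genes were, and 0 of 9 at GD21, where 0.0293% of 10244 genes were. At an unadjusted p under 0.05 there was 1 such gene at GD18, Ppargc1a (−1.07 ± 0.52, adjusted p = 0.56), beside 8.86% of all genes, and 0 at GD21, beside 2.05%, and DESeq2 called 0 in both. Fetal Ppara at GD21 stood at 25.1, 32.6 and 34.6 CPM at 30 mg/kg/d, inside the range of the controls (18.4 to 81.3 CPM), with a change of −0.85 ± 0.44 (edgeR adjusted p = 1.00). The median change of the 9 genes at GD21 was −0.40, against 0.02 for all genes. With 3 libraries a group and an SE of 0.26 to 0.82, a change of that size was not detectable. At doses below 30 mg/kg/d no receptor was called in any liver or age, where the share of all genes called was 0.0435% and 0.0541% at 10 mg/kg/d in maternal liver at GD18 and GD21 and 0 elsewhere. Fetal Nr1h4 at 10 mg/kg/d at GD21 stood at 11.7, 16.3 and 15.2 CPM, just below the lowest control (16.7 CPM), as 5.04% of genes did (−0.58 ± 0.37, edgeR adjusted p = 1.00).

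**Figure D4:**
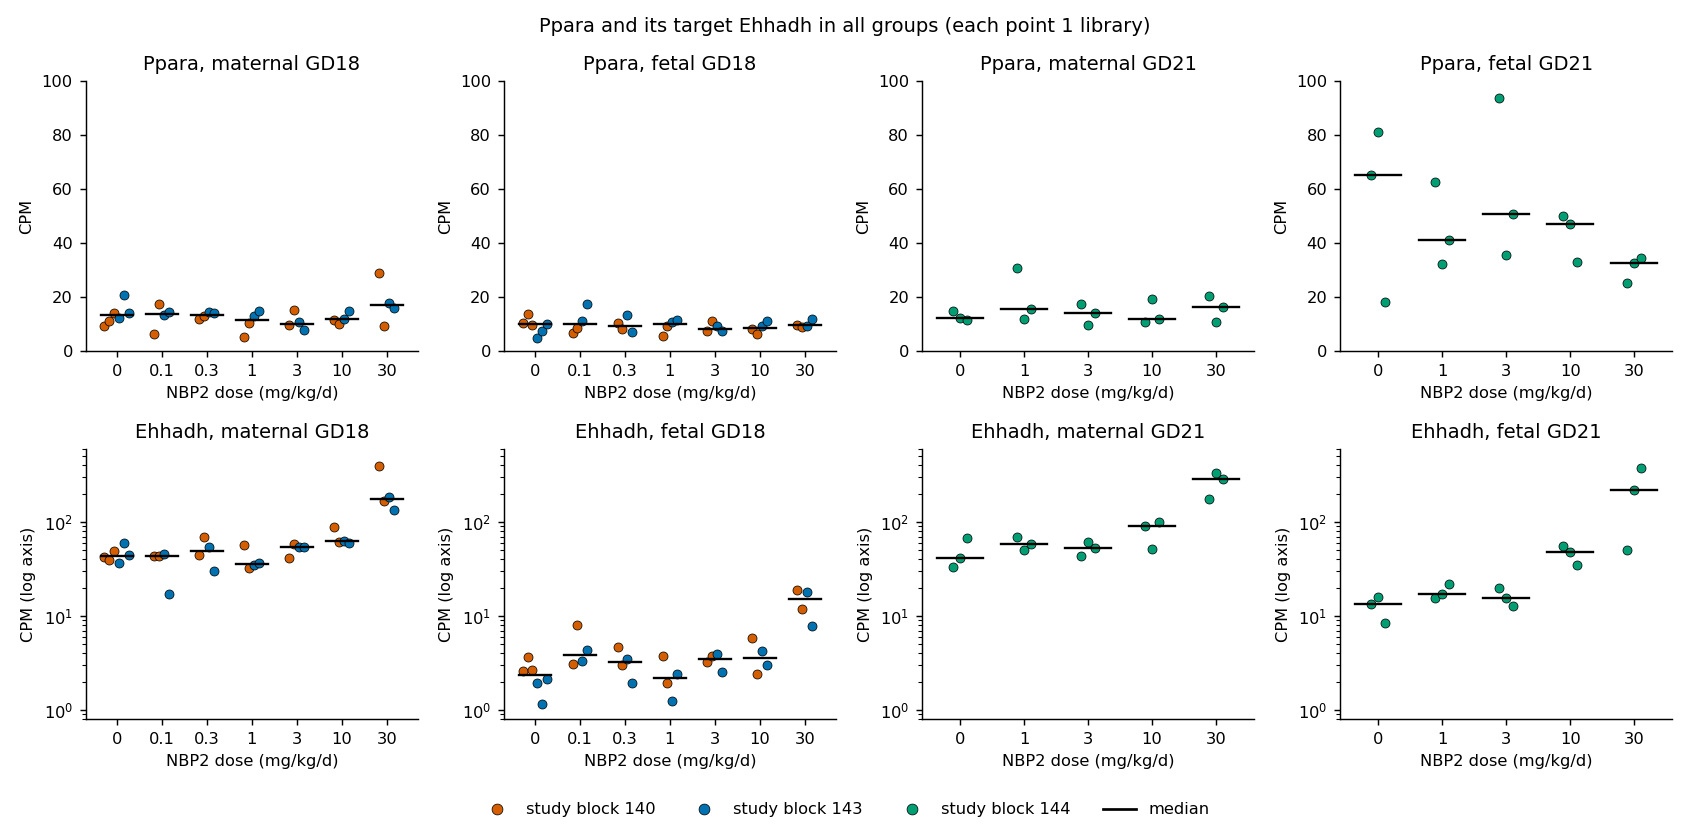
Level in CPM of Ppara (linear axis) and of its target Ehhadh (log axis) by NBP2 dose in maternal and fetal liver at GD18 and GD21; each point is 1 library coloured by study block, and lines are medians. No dose group of Ppara was called against control, while all Ehhadh values at 30 mg/kg/d are above the controls in each.

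The responses of the targets can be set beside the receptor levels. Of PPAR-alpha targets, 11 of 34 rose in maternal liver at GD18 (median 0.64, all genes 0.05), 7 of 32 at GD21 (0.70), 8 of 30 in fetal liver at GD18 (0.48) and 3 of 32 at GD21 (1.04, all genes 0.02), and none fell. Of CAR and PXR targets, 10 of 22 rose in maternal liver at GD18 (median 1.36) and 12 of 22 at GD21 (1.58), against 1 of 18 in fetal liver at GD18, Cyp3a23/3a1, and 0 of 18 at GD21 (medians −0.03 and 0.30). Of all genes, 0.348% and 0.303% were called higher in maternal liver at GD18 and GD21, and 0.103% and 0.0293% in fetal liver. In the fetal controls of the 2 ages the median was 9.93 and 65.1 CPM for Ppara, 50.5 and 126 CPM for Nr1i2, and 0.666 and 0.480 CPM for Nr1i3. The difference of responses was called for few targets. Cyp4a2 (2.69 ± 0.39), Cyp4a3 (2.91 ± 0.37) and Fabp1 (2.57 ± 0.41), a fatty acid carrier, had larger fold changes in the fetus at GD18. Fabp1 did so again at GD21 (2.82 ± 0.44). They started from lower fetal controls: against maternal controls Fabp1 was at −6.58 ± 0.32 at GD18 and −4.725 ± 0.358 at GD21. Cyp4a3 was at −4.77 ± 0.27 at GD18. Ephx1 responded less in the fetus at both ages (−1.51 ± 0.27 and −1.80 ± 0.33) and Gsta2 at GD21 (−3.10 ± 0.58). These 5 genes are named because they were called, and Cyp4a2, Cyp4a3 and Gsta2 have near copies whose reads may be shared.

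**Figure D5:**
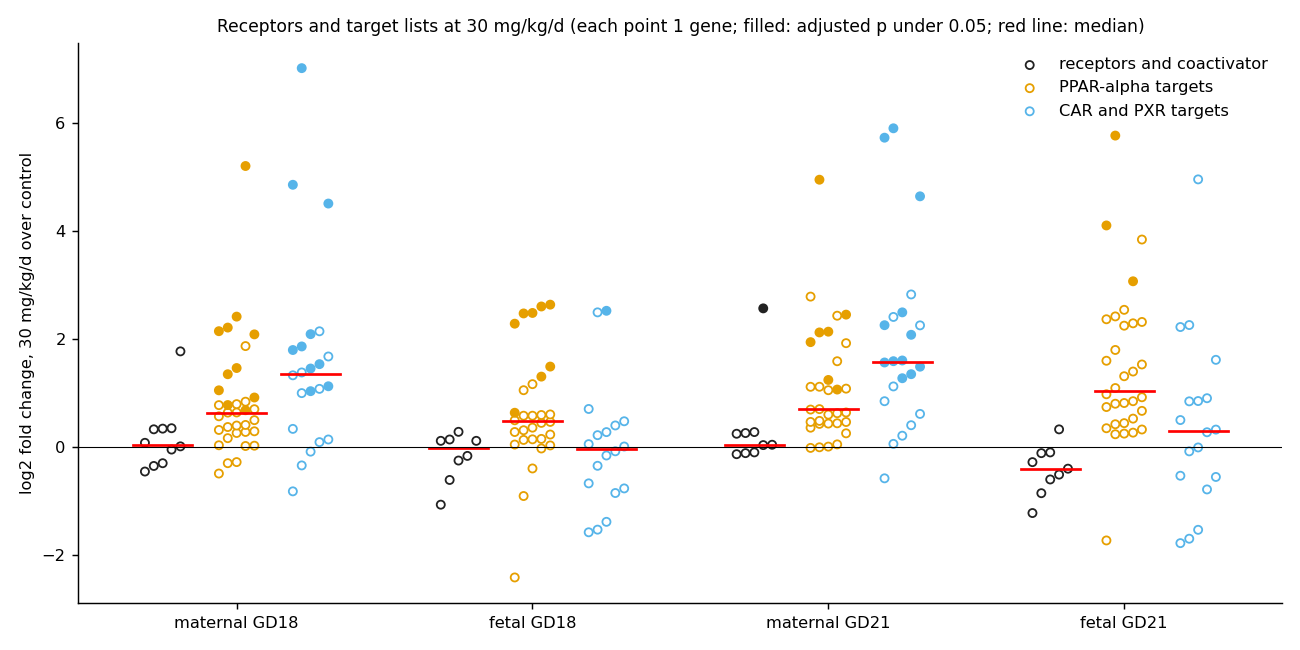
Log2 fold change at 30 mg/kg/d over control for the receptors and coactivator, PPAR-alpha targets and CAR and PXR targets that passed the low-count filter, in the 4 sets of libraries; each point is 1 gene, filled where the adjusted p was under 0.05 (edgeR), and red lines are medians. The receptor medians lie between −0.40 and 0.05, and CAR and PXR targets have their highest medians in maternal liver (1.36 and 1.58).

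Ehhadh at 30 mg/kg/d rose by 2.15 ± 0.23 in maternal GD18, 2.64 ± 0.28 in fetal GD18, 2.46 ± 0.30 in maternal GD21 and 4.11 ± 0.56 in fetal GD21 liver (edgeR adjusted p of 5.3e-07, 3.2e-06, 0.00049 and 0.0067). The fetal and maternal responses did not differ past the threshold (0.63 ± 0.38 and 1.65 ± 0.61, edgeR adjusted p = 0.33 and 1.00). Fetal GD21 liver, with the highest control Ppara, held Ehhadh at 50.0, 222 and 374 CPM at 30 mg/kg/d, and fetal GD18 liver at 18.9, 12.0, 18.1 and 7.87 CPM. The lowest GD21 value was that of dam 2141, whose fetal library also held the lowest Ppara of the 3 (25.1 CPM), the fewest hepatocyte marker counts (10620 CPM, against 18080 and 19950) and the most erythroid ones, and the part of these in the value was not tested. Acot1, a cytosolic thioesterase, rose by 5.21 ± 0.76 in maternal and 2.61 ± 0.35 in fetal GD18 liver and by 4.96 ± 0.98 and 5.78 ± 0.71 at GD21, all called.

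Cyp3a23/3a1, the PXR-induced cytochrome P450, rose by 4.52 ± 0.43 at GD18 and 4.65 ± 0.47 at GD21 in maternal liver (edgeR adjusted p = 1.2e-07 and 7.5e-05) and by 2.53 ± 0.28 in fetal GD18 liver (adjusted p = 4.3e-06). In fetal GD18 liver it went from 4.02 to 7.72 CPM in controls to 21.1 to 44.0 CPM, and in maternal liver from 92.5 to 172 CPM to 2352 to 4647 CPM, with Nr1i2 at a median of 50.5 and 186 CPM in the respective controls. The fetal and maternal responses at GD18 did not differ past the threshold for Cyp3a23/3a1 (−1.87 ± 0.55, edgeR adjusted p = 0.12) or Cyp2b1 (−3.47 ± 1.05, adjusted p = 0.12). Fetal control Cyp2b1 at GD18 was 2.27 to 5.07 CPM in block 140 and 0.0455 to 0.0513 CPM in block 143. In those block 140 controls the mean per olfactory, vomeronasal and taste receptor gene was 0.878 to 2.91 CPM. The part of such counts in the Cyp2b1 difference was not tested. At GD21, fetal Cyp3a23/3a1 was 0.512 to 3.43 CPM in controls and 3.53 to 21.1 CPM at 30 mg/kg/d (2.23 ± 0.83, adjusted p = 1.00). Fetal Cyp2b1 at GD21 reached 55.7 and 36.9 CPM in dams 2142 and 2143 and was lower in dam 2141, yet all 3 were above the controls (0.776 to 1.51 CPM), and did not pass (4.96 ± 1.10, edgeR adjusted p = 0.22).

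Few targets of the remaining receptors were called at 30 mg/kg/d. None of the FXR or HNF4-alpha targets was called in any of the 4 sets, and of the LXR targets only Lpl passed, in fetal GD18 liver. Lpl, lipoprotein lipase, is on the PPAR-gamma list too, and its change was 0.51 ± 0.10 (edgeR adjusted p = 0.043). Of the PGC-1-alpha targets only Alas1, the first enzyme of haem synthesis and also on the CAR and PXR list, passed, in maternal GD21 liver. Nr0b2 changed by 0.74 ± 0.35 and 1.19 ± 0.35 in maternal liver at GD18 and GD21 (edgeR adjusted p = 0.46 and 0.26), and Abcb11 by 0.22 ± 0.16 and 0.40 ± 0.17 (adjusted p = 0.67 and 0.60).

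A wider list of other nuclear receptors and coregulators was read in the same way. At 30 mg/kg/d, 1 of 48 was called in maternal GD18 liver, the clock repressor Nr1d1 (2.04 ± 0.43, edgeR adjusted p = 0.022), with overlap between the groups, and 0 of 46, 45 and 44 in the fetal GD18, maternal GD21 and fetal GD21 sets, beside 0.457% of all genes in the maternal GD18 set and 0.103%, 0.336% and 0.0293% in the other 3. In maternal GD21 liver Nr1d1 stood at 37.8 to 94.9 CPM at 30 mg/kg/d, above all controls (3.34 to 13.3 CPM), and its slope over doses was called there (0.72 ± 0.15 per step, edgeR adjusted p = 0.044). In controls at GD18, 31 of 50 were lower and 5 higher in fetal liver (median −1.14), beside 21.9% and 27.1% of all genes. The lower genes included Rora (−2.56 ± 0.15) and the oestrogen receptor Esr1 (−6.44 ± 0.45), and the lowest adjusted p among the higher genes belonged to the thyroid hormone receptor Thra (2.38 ± 0.25), Kat2a (1.79 ± 0.19) and Pprc1 (3.06 ± 0.37), a relative of Ppargc1a. Between the ages 16 of 48 rose in fetal liver and none fell (10.7% and 6.4% of all genes), led by Rora (2.76 ± 0.23), Lpin1 (2.77 ± 0.25) and Cebpa (2.74 ± 0.22), a hepatocyte differentiation factor. At GD21, 6 of 47 were higher in fetal liver, led by Ep300, Lpin1 and Pprc1, and 18 were lower, Esr1 and Nr0b2 among them, beside 25.2% and 20.7% of all genes.

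The pattern of each gene over the 24 group means of log2(CPM + 1) was compared with 6269 expressed genes. The closest to Nr1i3 were Pnpla7 (Pearson r of 0.91), Dhrs7l1 (0.90) and Cyp2b1 (0.88). The closest to Ppara were Appl2 (0.96), Herpud1 (0.96) and Cldn1 (0.96), and only 6 genes exceeded 0.95 with it. Nr1i2 was closest to Acot12 (0.99), Nr1h4 to Rida (0.99), Rxra to Khk (0.99), Hnf4a to Creb3l2 (0.99) and Nr1h3 to Nr5a2 (0.99), and each of these 5 had 148 to 471 genes above 0.95. Ppard and Pparg were closest to Itpk1 (0.92) and Znrf1 (0.92), and Ppargc1a had no gene above 0.73. The group means share libraries, blocks and the fetal to maternal contrast, so these values describe shape only.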

How the data were processed

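TempO-Seq counts per gene of 90 liver libraries were used as the authors deposited them. The deposited values are estimated counts: 7.605% are not whole numbers, so they were rounded to whole counts before the tests, where raw counts had been planned for. STAR 2.7.3a, Partek and the rn6 build are named in the submitters' processing notes, with no role given. Per the labels' protocols, overly abundant transcripts were attenuated. A deposited log2 table was not used. Levels are CPM of the library total. Tests used edgeR 4.0.16 (R 4.3.3) quasi-likelihood fits of all genes after its low-count filter, with TMM factors, study block as a term at GD18, a prior count of 0.125 and Benjamini-Hochberg adjusted p under 0.05. Each SE after ± is the size of the log2 fold change divided by the square root of the test's F statistic. TMM and CPM scale libraries differently, so fitted folds and ratios of CPM medians need not match. DESeq2 1.42.0, RLE factors, total-count scaling, no filter, single blocks, dam as a block and leaving out each library were alternatives. The fits were tested on simulated counts. Fetal and maternal libraries are paired by dam, per the labels: the median correlation of their residuals was 0.0718 over 30 pairs at GD18 and 0.0589 over 15 pairs at GD21. The members and lists were chosen with earlier results of these data known. All 10 genes are named, with 7 fixed target readouts, the 3 called genes of smallest adjusted p per list and set, the 3 called other receptors of smallest adjusted p in each direction, and the 3 most alike genes; 1 gene that this rule names is not reported here. Each dam is 1 replicate. Each SE covers the spread between libraries of a group as well as counting error, while the upper limits for a count of 0 cover counting error only.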

Additional observations from a re-analysis of the deposited data

Results flagged for a closer look

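In 140 tests, each of 1 gene in 1 group of 4 or 6 libraries, for a single library far from the rest, 9 were marked, and chance marks about 1 in 20. In the fetal 3 mg/kg/d group at GD18, dam 2079 had Pparg at 5.486 CPM (others 0.5388 to 1.21) and Nr1h4 at 8.935 CPM (others 3.024 to 3.551). That library also carried 4918 CPM in sum on olfactory, vomeronasal and taste receptor genes (others 33.0 to 235.7). In maternal GD18 liver, dam 2077 at 1 mg/kg/d had Ppargc1a at 3.807 CPM (others 1.171 to 1.403), and dam 2073 at 0.1 mg/kg/d had Nr1i2 at 138.1 CPM (others 174.3 to 180.6). Dam 2124 at 3 mg/kg/d had Nr1i3 at 0.5214 CPM (others 2.218 to 2.553) and Rxra at 207.7 CPM (others 153.6 to 162.7). Nr1h4 stood at 25.64 CPM in dam 2125 at 10 mg/kg/d (others 19.47 to 20.37) and at 40.65 CPM in dam 2082 at 30 mg/kg/d (others 20.05 to 22.25). Fetal Rxra at 30 mg/kg/d stood at 43.91 CPM in dam 2128 (others 32.19 to 34.11). The maternal library of dam 2082 carried 5601 CPM in sum on olfactory, vomeronasal and taste receptor genes (others of its group 27.44 to 4492). The part of such counts in these values was not tested.

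The change from GD18 to GD21 in controls differed between fetal and maternal liver for 4 genes by a test of the difference itself. The fetal change was larger by 2.48 for Nr1h4, 2.47 for Ppara, 1.66 for Rxra and 1.13 for Nr1i2 on the log2 scale.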

How the results depend on the processing

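Counts of the 10 genes called were within 1.5 times the reported count in 141 of 149 alternative fits and in 109 of 118 fits that left out 1 library, and no call changed direction. A count of 0 in both fits was taken as within that range, and most comparisons called 0 genes. Single genes can also lose a call within that range. In the GD18 fetal to maternal comparison Nr1i3 lost its call in 11 of 22 alternatives and Ppara in 6 of 23. In the GD18 fetal to maternal comparison, block 140 alone called 5 genes, not 9. At 30 mg/kg/d in maternal GD18 liver, RLE factors and total-count scaling each called 1 gene, not 0, and so did the slope there on the dose itself. In maternal GD21 liver, control and 30 mg/kg/d libraries alone called 0, not 1, and the slope had 0 calls with DESeq2, which gave Nr1i3 no adjusted p, and without the 30 mg/kg/d group. The response difference at GD18 had 1 call, not 0, with control and 30 mg/kg/d libraries alone. The cause was not tested. With a library left out, 7 to 9 genes were called in the fetal to maternal comparison at GD18 and 5 to 7 at GD21, 4 to 7 in the fetal age comparison, 0 to 1 at 30 mg/kg/d in maternal liver at either age and in the GD18 response difference, 4 in the age by liver test and 0 elsewhere. With dam as a replicate block, the pairing of fetal and maternal libraries gave 9 and 6 calls at GD18 and GD21 and 0 and 0 in the response differences. Depth limits Nr1i3, Ppard and Ppargc1a most, with few counts per library.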
